A study of Homo sapiens with 8 samples.

Results

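The genes described here are the protein-coding zinc finger genes of human chromosome 19 whose symbols begin with ZNF and whose start lies under 50 Mb in RefSeq GRCh38.p14. The rule found 148 genes among 19126 autosomal protein-coding genes, and chromosome 19 holds 1303 other protein-coding genes. Each gene was read in a 50 kb window centred on its midpoint. Windows of 87 members share bases with the window of another member, so neighbouring members are not separate measurements. A cluster is a run of at least 5 members whose neighbouring starts lie within 1 Mb. By that definition 138 members fall into 7 clusters and 10 lie outside them. The rule uses only names and positions, though it was chosen with earlier results of these data known.

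The series measured DNA synthesis by scEdU-seq, which sequences the DNA that single cells made during a pulse of the thymidine analogue EdU. The cells were RPE-1 hTERT, retinal pigment epithelial cells immortalised with telomerase, as CFAP20-KO cells (KO) and as wild-type cells (WT). All received 10 µM EdU for 15 min with no other treatment, and were then fixed in 70% ethanol and sorted into 8 plates of 384 wells that each held both genotypes. CFAP20 is a cilia and flagella associated protein that the series' title connects with arrested RNA polymerase II ahead of replication forks. The sources used here do not give how the KO was made, how many clones it came from or whether plates were separate cultures, so p-values measure the spread between these plates, which may be technical.

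Chromosome 19 carries a large share of the human KRAB zinc finger genes, in clusters grown by tandem duplication. Many of these proteins bind transposable elements and recruit the corepressor TRIM28, which brings in the enzymes that write the heterochromatin mark H3K9me3. The clusters themselves are known to carry this mark over their 3′ zinc finger exons while many stay transcribed. DNA in gene-rich, open chromatin is copied early in S phase and DNA in closed chromatin late, so these clusters combine features of both.

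The plates held 1746074 to 4181841 deposited fragments, each taken as 1 molecule, from 377 or 378 wells. Cells with at least 1000 autosomal molecules numbered 129 to 162 KO and 132 to 190 WT per plate, 1140 and 1290 in all. KO and WT cells of one plate shared 0 well barcodes, and 377 of 378 barcodes recur in all 8 plates because plates use the same set. The cells were put in order by the pattern of their labelled DNA along the genome, and the rank was scaled from 0 (early S phase) to 1 (late S phase). The timing of a window is the mean rank of the cells that labelled it, weighted by molecules, and a window counted as measured with at least 10 molecules in every plate. Weighted by molecules, the mean position of the cells was 0.551 ± 0.0377 in KO and 0.513 ± 0.0465 in WT (SD, n = 8 plates), later in KO in 5 of 8 plates. Without the weights it was 0.518 ± 0.0214 in KO and 0.485 ± 0.0198 in WT, later in KO in 8 of 8 plates.

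The ZNF genes were copied later than the rest of chromosome 19, in every plate. The median ZNF window had a timing of 0.486 ± 0.0405, against 0.230 ± 0.0416 for the median window of the other chromosome 19 genes (SD, n = 8 plates). The per-plate difference ran from 0.186 to 0.318 with a median of 0.268, and its mean was 0.256 ± 0.0490. It was above 0 in 8 of 8 plates. In KO cells alone the difference was 0.232 ± 0.0565 and in WT cells alone 0.281 ± 0.0482. No p is given for this summary, because the genes were picked with earlier results of these data known.

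Of the 148 genes, 136 were measured, beside 946 other chromosome 19 genes. The 12 that were not measured are ZNF558, ZNF653, ZNF66, ZNF85, ZNF100, ZNF676, ZNF729, ZNF254, ZNF546, ZNF780A, ZNF780B and ZNF114. Among them 5 windows, those of ZNF558, ZNF85, ZNF100, ZNF546 and ZNF780B, held 0 molecules in all 8 plates. The timings of the measured genes spread over nearly the whole scale, while most other chromosome 19 genes were early. A timing above 0.7 was found for 36 ZNF genes (26.5%), against 48 other chromosome 19 genes (5.07%). A timing below 0.3 was found for 45 ZNF genes (33.1%), against 691 others (73.0%). The remaining 55 ZNF genes lay in between.

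In a fit across all autosomal gene windows (limma on timing minus that of the median other chromosome 19 gene, Benjamini-Hochberg adjusted p under 0.05), 94 of 136 ZNF genes were later and 3 were earlier. Over all 15894 windows tested, 35.3% were later and 10.4% earlier by the same rule. Among the ZNF genes 69.1% were later, against 27.5% of the other chromosome 19 genes. The 3 earlier ZNF genes were ZNF414, ZNF575 and ZNF627.

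The earliest gene was ZNF414, at chr19:8509678-8514167, with a timing of 0.0801 to 0.182 over the plates and a median of 0.142. The latest was ZNF723, at chr19:22812218-22858667, with 0.747 to 0.931 and a median of 0.887. The plates of both genes did not overlap. Genes copied early tend to have CpG-rich promoters, and the promoters of these genes are shown here for that reason, together with those of ZNF625 and ZNF878, the genes with the smallest adjusted p for a KO difference in timing below. Each line gives the 300 bases around the start in RefSeq GRCh38.p14, 5′ to 3′ on the strand of the gene, with CpG dinucleotides in capitals. They lie at chr19:8514118-8514417 (minus strand), chr19:22832041-22832340 (plus strand, a start inside the annotated span of ZNF723), chr19:12156685-12156984 (minus strand) and chr19:12052912-12053211 (minus strand).
ZNF414: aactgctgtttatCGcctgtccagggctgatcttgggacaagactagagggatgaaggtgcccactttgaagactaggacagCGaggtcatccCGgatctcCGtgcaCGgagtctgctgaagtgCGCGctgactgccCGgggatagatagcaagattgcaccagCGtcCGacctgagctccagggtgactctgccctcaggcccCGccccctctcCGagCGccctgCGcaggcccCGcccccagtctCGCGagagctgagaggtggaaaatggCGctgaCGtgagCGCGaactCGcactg
ZNF723: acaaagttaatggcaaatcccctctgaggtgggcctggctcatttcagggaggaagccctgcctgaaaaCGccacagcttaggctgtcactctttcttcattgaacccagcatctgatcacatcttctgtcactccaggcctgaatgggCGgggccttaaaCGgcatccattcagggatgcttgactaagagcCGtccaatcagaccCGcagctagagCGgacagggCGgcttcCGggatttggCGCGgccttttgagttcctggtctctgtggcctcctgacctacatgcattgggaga
ZNF625: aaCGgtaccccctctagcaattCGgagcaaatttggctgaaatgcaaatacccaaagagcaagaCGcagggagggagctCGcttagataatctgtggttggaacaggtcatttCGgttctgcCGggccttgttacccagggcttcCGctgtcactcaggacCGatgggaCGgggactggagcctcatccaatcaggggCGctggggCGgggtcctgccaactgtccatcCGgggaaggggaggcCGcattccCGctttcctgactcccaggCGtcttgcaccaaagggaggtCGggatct
ZNF878: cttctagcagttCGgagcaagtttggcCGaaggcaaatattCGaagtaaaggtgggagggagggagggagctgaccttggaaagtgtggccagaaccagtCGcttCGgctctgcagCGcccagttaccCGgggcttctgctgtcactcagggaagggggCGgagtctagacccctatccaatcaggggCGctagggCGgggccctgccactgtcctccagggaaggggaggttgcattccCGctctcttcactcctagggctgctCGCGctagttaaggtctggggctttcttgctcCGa
They hold 22 CpG in ZNF414, 10 in ZNF723, 16 in ZNF625 and 14 in ZNF878.

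Promoters were matched for 130 of the 148 ZNF genes. Their GC content had a median of 59% and their CpG number a median of 18, against 64% and 22 for 1055 other chromosome 19 promoters. CCAAT on either strand, the letters of the box that NF-Y binds, was in 56.9% of ZNF promoters, 38.0% of other chromosome 19 promoters and 36.0% of all 15101 autosomal promoters. CCGGAA on either strand, the core of ETS factor sites, was in 46.9%, 25.8% and 23.1% of the same sets, and its matches can share bases with those of the next motif. The GC box, GGGCGG on either strand, was in 64.6% of ZNF promoters, 66.4% of other chromosome 19 promoters and 58.9% of all. TATAAA was in 3 of the 130 (2.31%), all in the ZNF101 to ZNF254 cluster, against 7.49% of other chromosome 19 promoters and 9.71% of all. The clusters differed in this: CCAAT was in 29 of 29 promoters of the ZNF101 to ZNF254 cluster and 22 of 24 of the ZNF653 to ZNF791 cluster, against 4 of 20 in the ZNF575 to ZNF296 cluster. Across 121 measured ZNF genes, Pearson's r between timing and promoter CpG number was -0.31, a description over genes that share windows and duplicated sequence.

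**Figure D1:**
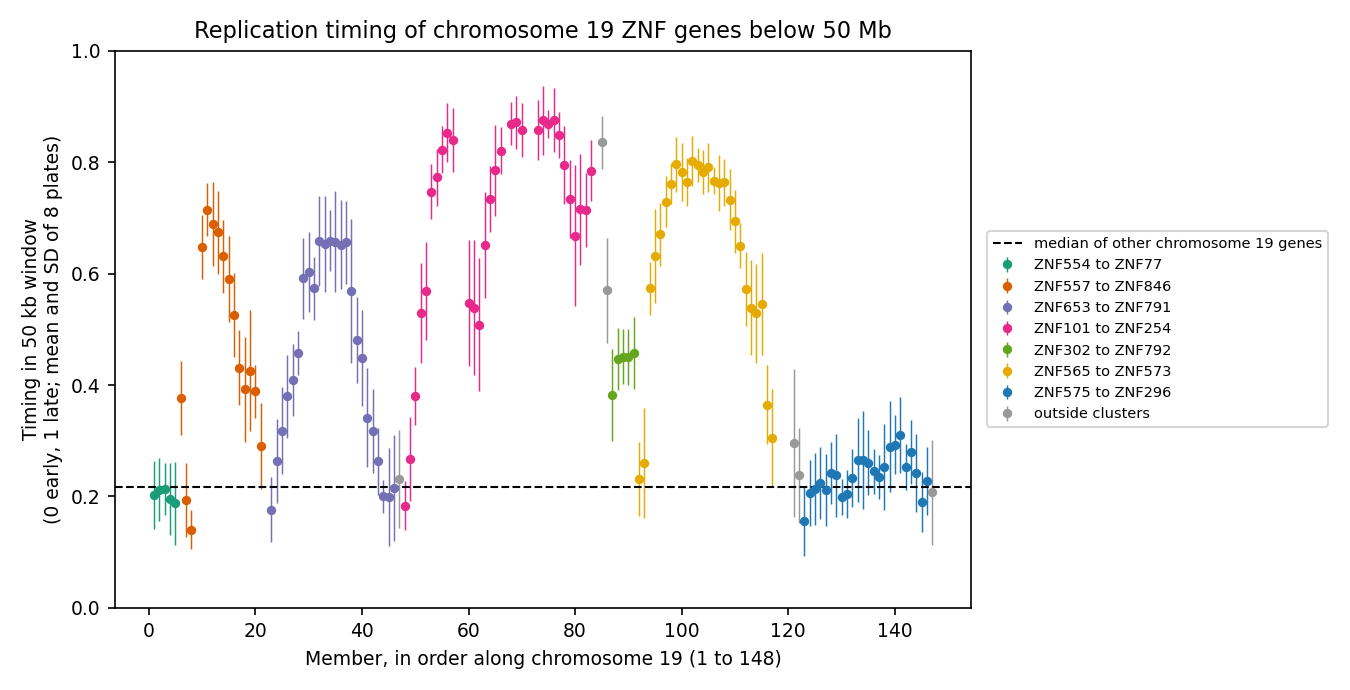
Timing of each measured ZNF gene (mean and SD of 8 plates) in its order along chromosome 19, coloured by cluster, with the median of the other chromosome 19 genes as a dashed line. Timing climbs and falls along 4 clusters, from near the line up to 0.875, while the first and last clusters stay near the line throughout.

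Timing changed from gene to gene along the clusters, and in 2 of them the edges were early and the middle late. The ZNF653 to ZNF791 cluster (chr19:11483429-12633834, 25 members) went from 0.176 ± 0.0581 at ZNF627 through 0.457 ± 0.0392 at ZNF439 to 0.659 ± 0.0550 at ZNF844, and back to 0.215 ± 0.0952 at ZNF791 (SD, n = 8 plates). ZNF791 was also the gene whose mean timing was nearest to 0.216, the median of the mean timings of the other chromosome 19 genes. The ZNF565 to ZNF573 cluster (chr19:36182060-37779586, 26 members) had the same shape, from 0.232 ± 0.0662 at ZNF565 to 0.802 ± 0.0449 at ZNF345 and 0.304 ± 0.0877 at ZNF573. In this cluster 24 of 26 genes were called later than the median other chromosome 19 gene. ZNF568, whose mouse counterpart represses a placental Igf2 transcript, lay in its late middle at 0.782 ± 0.0396.

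The ZNF101 to ZNF254 cluster (chr19:19668153-24129968, 37 members) was the latest, with a member median of 0.773 and 29 of 31 measured genes called later. It began early at ZNF101 (0.183 ± 0.0435) and reached 0.853 ± 0.0530 at ZNF737. A second, earlier stretch followed, with 0.508 ± 0.119 at ZNF431, before a further late stretch that held ZNF723 (0.875 ± 0.0571). ZNF91 and ZNF93, which are known to repress SVA and LINE-1 elements in human and other primate cells, lay at 0.668 ± 0.127 and 0.569 ± 0.0884. Both were later than the median other chromosome 19 gene (limma adjusted p 7.2e-10 and 2.04e-09).

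The ZNF557 to ZNF846 cluster (chr19:7069703-9786160, 16 members) was mixed, and holds the earliest gene, ZNF414, beside ZNF699 at 0.715 ± 0.0477. Its 46 measured other genes had a median timing of 0.206, against 0.431 for the ZNF genes of the same span. The same order was seen in the ZNF653 to ZNF791 cluster, where 4 other genes had a median of 0.177 against 0.453 for the ZNF genes. ZNF genes were themselves early in parts of these spans, as at the start of the former, with ZNF557 at 0.377, ZNF358 at 0.193 and ZNF414 at 0.140. Where the other genes lay along the spans was not compared, so the medians can come from different stretches. In the ZNF575 to ZNF296 cluster the values lay close together, with 0.240 for the ZNF genes and 0.195 for 25 other genes. Both values in the ZNF101 to ZNF254 cluster were late, 0.773 for the ZNF genes and 0.793 for 2 other genes.

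The ZNF302 to ZNF792 cluster (chr19:34675979-34964229, 5 members) was flat in mid S phase, from 0.382 ± 0.0828 at ZNF302 to 0.458 ± 0.0647 at ZNF792, and 5 of 5 genes were called later. The ZNF554 to ZNF77 cluster (chr19:2819868-2944971, 5 members) was flat and early, from 0.188 ± 0.0747 at ZNF77 to 0.214 ± 0.0467 at ZNF556, and 0 of 5 were called either way. The ZNF575 to ZNF296 cluster (chr19:43530835-45076478, 24 members) was early as well, from 0.156 ± 0.0628 at ZNF575 to 0.310 ± 0.0680 at ZNF235, with 3 called later and 1 earlier. ZNF555, ZNF428 and ZNF404, members of these 2 early clusters, had timings of 0.212, 0.213 and 0.211, next after ZNF791 and ZNF556 in closeness to that median. Outside the clusters the range ran from ZNF541, whose mouse counterpart acts in meiosis, at 0.207 ± 0.0941, to ZNF536, a neural regulator, at 0.835 ± 0.0473.

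Read as whole spans, the clusters ran from late to early as follows. Over the plates, timing was 0.768 ± 0.0361 in the ZNF101 to ZNF254 cluster and 0.651 ± 0.0252 in the ZNF565 to ZNF573 cluster. It was 0.473 ± 0.0364 in the ZNF302 to ZNF792 cluster, 0.430 ± 0.0429 in the ZNF653 to ZNF791 cluster and 0.351 ± 0.0415 in the ZNF557 to ZNF846 cluster. It was 0.226 ± 0.0330 in the ZNF575 to ZNF296 cluster and 0.200 ± 0.0452 in the ZNF554 to ZNF77 cluster. All 21 pairs of clusters were compared by exact permutation of signs over the 8 plates (both sides counted), and 20 differed after Benjamini-Hochberg adjustment. For 19 of these the order held in all plates, with exact p = 0.00781, the smallest that 8 plates allow, and adjusted p = 0.00863. The ZNF302 to ZNF792 cluster was later than the ZNF653 to ZNF791 cluster in 7 plates (difference 0.0428 ± 0.0363, exact adjusted p = 0.0246). The ZNF575 to ZNF296 cluster was later than the ZNF554 to ZNF77 cluster in 4 of 8 plates (difference 0.0264 ± 0.0340, exact adjusted p = 0.125), which did not pass. The middle of this order depended on the weighting and on the gap that defines a cluster. With a gap of 0.5 Mb the ZNF557 to ZNF846 cluster began at ZNF414 instead, and its timing was 0.475 ± 0.0495. That put it above the ZNF653 to ZNF791 cluster (0.430) and beside the ZNF302 to ZNF792 cluster (0.473). With equal weight per cell 15 pairs differed, and the ZNF557 to ZNF846 (0.482), ZNF653 to ZNF791 (0.479) and ZNF302 to ZNF792 (0.473) clusters lay close together in the reverse order.

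**Figure D2:**
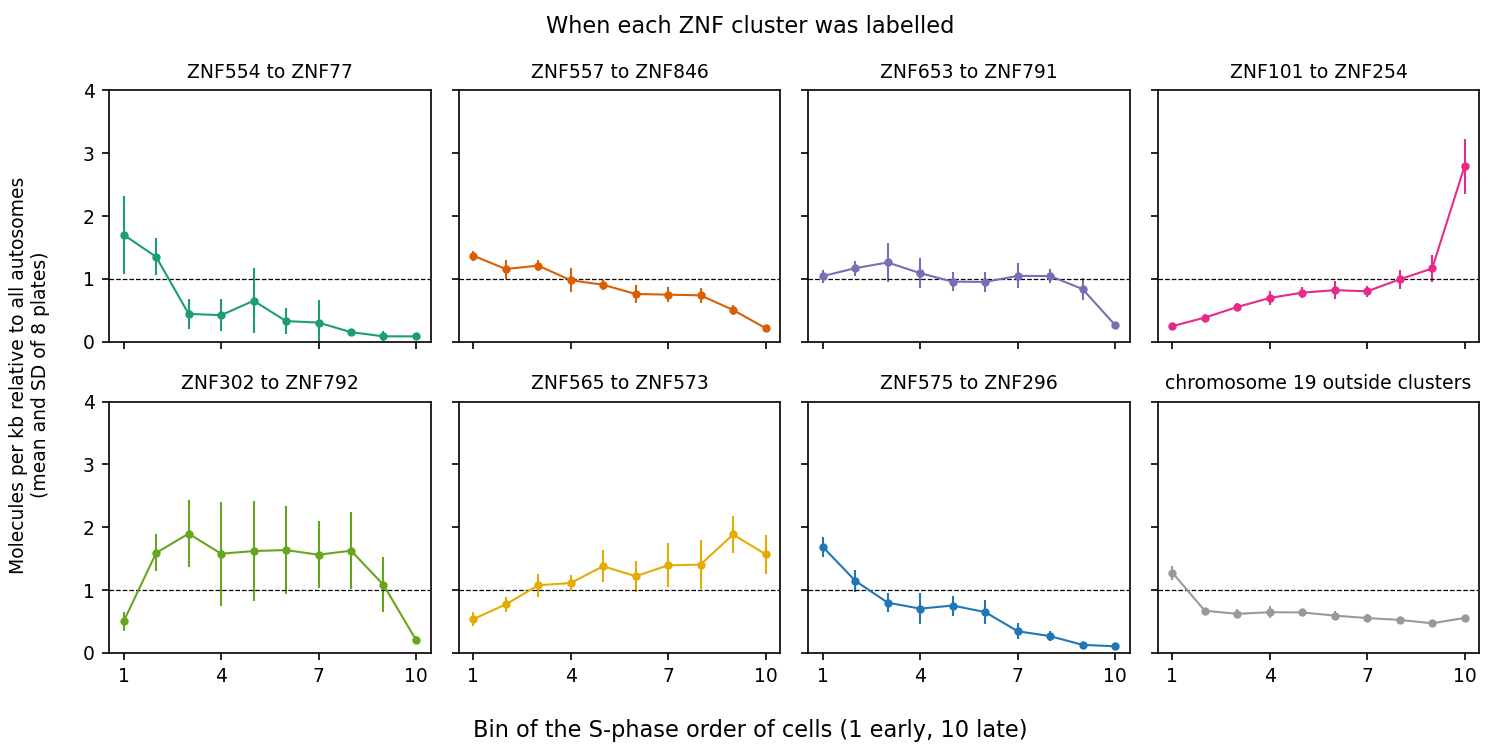
Molecules per kb of each cluster relative to all autosomes, in 10 bins of the S-phase order from early to late (mean and SD of 8 plates, both genotypes together), with the rest of chromosome 19 in the last panel. The ZNF101 to ZNF254 cluster rises to 2.79 in bin 10, where the ZNF554 to ZNF77 and ZNF575 to ZNF296 clusters are at 0.0867 and 0.105.

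Where in S phase each cluster was labelled was read as its molecules per covered kb relative to all autosomes, with the order of cells cut into 10 bins of equal width, bin 1 early and bin 10 late. The ZNF101 to ZNF254 cluster held 0.249 ± 0.0326 of the autosomal level in bin 1, 1.17 ± 0.212 in bin 9 and 2.79 ± 0.435 in bin 10. The ZNF565 to ZNF573 cluster was labelled before it, with 0.537 ± 0.107 in bin 1 and its highest level, 1.88 ± 0.299, in bin 9. The ZNF302 to ZNF792 cluster was low at both ends of S phase, at 0.504 ± 0.148 in bin 1 and 0.209 ± 0.0578 in bin 10, and reached 1.90 ± 0.539 in bin 3. With both genotypes together, the ZNF653 to ZNF791 cluster was labelled almost evenly, at 1.05 ± 0.104 in bin 1 and 0.840 ± 0.172 in bin 9. It dropped to 0.268 ± 0.0392 in bin 10. KO and WT differed in the course of this cluster, as given below. The early clusters had the opposite course to the latest one. The ZNF575 to ZNF296 cluster went from 1.69 ± 0.154 in bin 1 to 0.105 ± 0.0146 in bin 10.

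ZNF windows held more molecules than windows of other chromosome 19 genes. The median ZNF window had 27.5 to 75 molecules per plate, against 17 to 39 for the others, a log2 ratio of 0.97 ± 0.24 (SD, n = 8 plates), above 0 in 8 of 8. The highest totals over all plates were 751 at ZNF461, 711 at ZNF527 and 681 at ZNF382, all in the ZNF565 to ZNF573 cluster. Mapping and copy number were not corrected in these totals, and 5 kb steps that held 0 molecules in every plate added up to 325 kb of the ZNF557 to ZNF846 cluster and 520 kb of the ZNF101 to ZNF254 cluster.

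Other zinc finger genes were set beside these. The 94 measured ZNF genes of chromosome 19 from 50 Mb on had a median timing of 0.576, and 76 were called later. The 224 measured ZNF genes on other autosomes had a median of 0.262, and 101 were called later (45.1%). The 15 measured chromosome 19 zinc finger genes under other symbols (ZFP, ZIM, ZBTB and the like) had a median of 0.453, with 12 called later, against a median of 0.231 for all autosomal genes. The 17 measured genes of the KRAB corepressor and heterochromatin machinery had a median of 0.218. TRIM28, the corepressor itself, was the earliest of these at 0.171 ± 0.0492, and ATF7IP, a partner of the H3K9 methyltransferase SETDB1, the latest at 0.735 ± 0.0653.

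The next comparison is KO against WT, which asks whether loss of CFAP20 changed when the ZNF genes were copied. A part of them was copied earlier in KO, and the share of tested genes called was highest in the ZNF653 to ZNF791 cluster. In 50 kb windows with at least 10 molecules in all 16 libraries (8 plates by 2 genotypes), 51 ZNF genes could be tested, and 9 were earlier and 0 later in KO (limma on timing, each library centred on its median window, adjusted p under 0.05). Over all 3900 windows tested, 10.9% were earlier and 8.05% later. Among the 9 are ZNF439, ZNF763, ZNF433, ZNF878, ZNF625 and ZNF563, which are 6 of the 6 tested members of the ZNF653 to ZNF791 cluster. The others are ZNF426, ZNF599 and ZNF570, 1 in each of 3 further clusters. Earlier timing in KO was not limited to genes under 50 Mb. Of 6 tested ZNF genes of chromosome 19 from 50 Mb on, 3 were earlier and 0 later. Their median difference was -0.124, against -0.0437 for the 51.

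ZNF625 (chr19:12144890-12156734) ranged from 0.381 to 0.670 in KO with a median of 0.501, against 0.683 to 0.850 in WT with a median of 0.749. The genotypes did not overlap. The fitted difference was -0.224 (SE 0.0412, limma adjusted p 0.000205), with KO earlier in 8 of 8 plates. ZNF878 (chr19:12043602-12052961) ranged from 0.305 to 0.732 in KO with a median of 0.446, against 0.568 to 0.818 in WT with a median of 0.739. KO was earlier in 8 of 8 plates. The ranges overlapped, because 2 KO plates were at 0.728 and 0.732, and the difference was -0.244 (SE 0.0485, limma adjusted p 0.000482). The window of ZNF878 shares bases with that of ZNF433, so these values are not separate.

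ZNF433 (chr19:12014715-12035679) ranged from 0.317 to 0.698 in KO, against 0.633 to 0.805 in WT, a difference of -0.228 (SE 0.0501, limma adjusted p 0.00127) seen in 8 of 8 plates. ZNF439 (chr19:11848726-11869486) ranged from 0.255 to 0.430 in KO, against 0.418 to 0.628 in WT, with KO earlier in 8 of 8 plates (difference -0.196, SE 0.0409, limma adjusted p 0.000771). The ranges of both genes overlapped between genotypes at their edges. ZNF763 had a mean of 0.456 ± 0.0965 in KO and 0.656 ± 0.0948 in WT, and ZNF563 0.409 ± 0.0923 in KO and 0.521 ± 0.0849 in WT (SD, n = 8 plates). KO was earlier in 7 plates for ZNF763 and in 6 for ZNF563.

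In the other clusters, ZNF570 had a mean of 0.462 ± 0.136 in KO and 0.632 ± 0.101 in WT, ZNF426 0.360 ± 0.0494 in KO and 0.498 ± 0.125 in WT, and ZNF599 0.363 ± 0.102 in KO and 0.507 ± 0.0999 in WT. KO was earlier in 6, 7 and 6 of 8 plates. These genes were in mid S phase in WT, and their genotypes overlapped. The 2 latest ZNF genes were not among the 9: ZNF723 differed by -0.0171 (SE 0.0408) and ZNF492 by -0.00564 (SE 0.0411). Of the 9, ZNF625, ZNF433 and ZNF878 had WT means above 0.7, at 0.749, 0.741 and 0.727. ZNF573, at the edge of its cluster, had the highest positive difference of the 51, 0.123 (SE 0.0458, limma adjusted p 0.0556), with KO later in 7 of 8 plates. With plate as a replicate block it was called later in KO (limma adjusted p 0.0435).

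**Figure D3:**
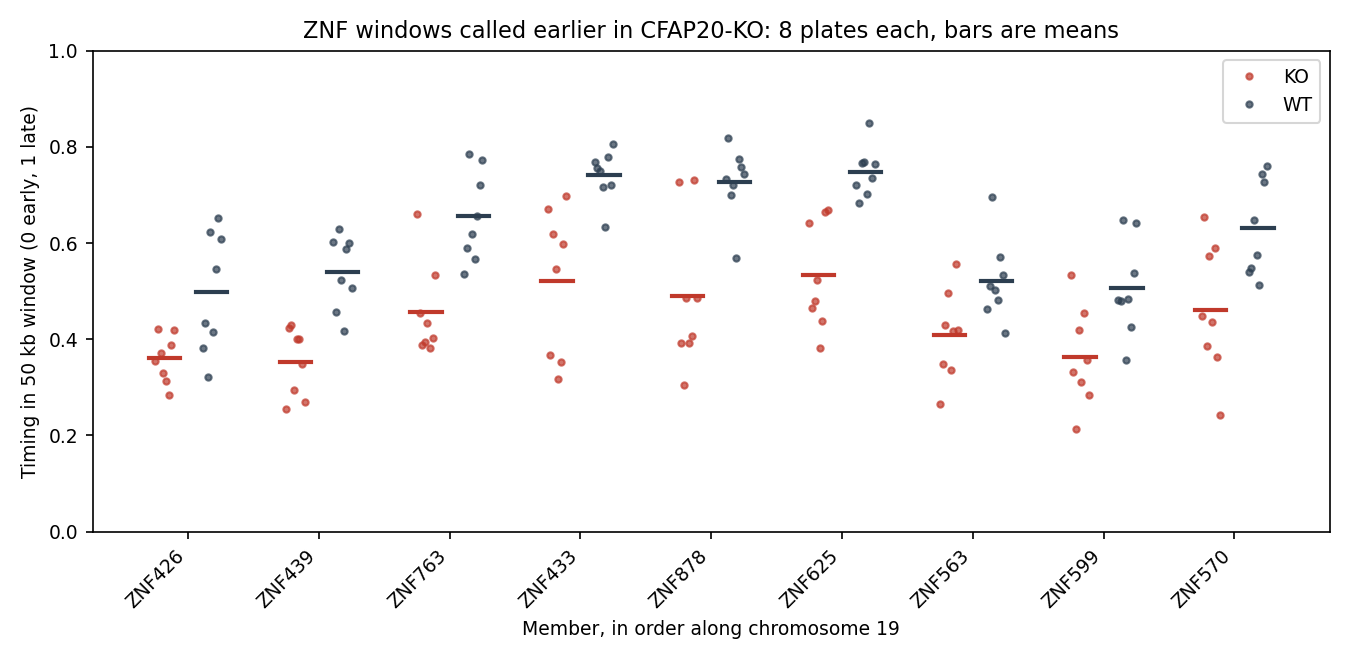
Timing of the 9 ZNF windows called earlier in KO, with KO plates (red) left of WT plates (dark) and bars at the means of 8 plates. The genotypes are apart for ZNF625, where KO lies at or below 0.670 and WT at or above 0.683, and overlap for the other 8.

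In 100 kb windows, which hold more molecules, 129 ZNF genes could be tested. Of these 50 were earlier in KO and 0 later, where 13.7% of all 13800 windows were earlier and 2.09% later (limma, adjusted p under 0.05). A difference below 0 was found for 119 ZNF genes, called or not. The share of all windows below 0 was not counted. The median difference of the ZNF genes was -0.0675, against -0.0141 for all windows. In windows this wide neighbouring members of a cluster often share bases, so the 50 are fewer than 50 separate measurements.

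The difference was largest in the middle of the ZNF653 to ZNF791 cluster, where 20 of 25 genes were called. It deepened from 0.0417 (SE 0.0369) at ZNF653 on one edge to -0.305 (SE 0.0316, limma adjusted p 7.42e-08) at ZNF136, and was -0.0140 (SE 0.0365) at ZNF791 on the other edge. In the ZNF101 to ZNF254 cluster, 6 of 31 genes were called, and they follow each other along the stretch where timing climbed from 0.381 at ZNF506 to 0.823 at ZNF486. They are ZNF506, ZNF253, ZNF93, ZNF682, ZNF90 and ZNF486, with differences of -0.118 to -0.281, the farthest at ZNF93. None of the members beyond ZNF486 was called.

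In the ZNF557 to ZNF846 cluster 9 of 14 genes were called, all between ZNF699 and ZNF846, with differences of -0.0875 to -0.178. In the ZNF565 to ZNF573 cluster 10 of 26 were called, with -0.107 to -0.161, on both flanks and in a short stretch from ZNF790 to ZNF829. In the ZNF575 to ZNF296 cluster 3 of 19 were called (ZNF227, ZNF233 and ZNF235), in the ZNF302 to ZNF792 cluster 2 of 5 (ZNF181 and ZNF599), and in the ZNF554 to ZNF77 cluster 0 of 5.

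KO and WT cells were not spread alike over S phase, as given above, and the calls were therefore also made with each library weighted so that each of the 10 bins held the same share, a setting chosen after seeing the data. With it 30 of 129 ZNF genes remained earlier in 100 kb windows and 0 were later, where 7.07% of all windows were earlier and 1.3% later. The median difference was -0.0443 for the ZNF genes and -0.00601 for all windows. A difference above 0 was found for 31 of the 129, against 10 without this setting. Of the ZNF653 to ZNF791 cluster, 18 genes remained, with differences of -0.102 to -0.200. In the ZNF557 to ZNF846 cluster 6 remained, in the ZNF101 to ZNF254 cluster 5, in the ZNF302 to ZNF792 cluster 1 and in the ZNF565 to ZNF573 and ZNF575 to ZNF296 clusters 0. In 50 kb windows 4 of 51 remained (ZNF763, ZNF433, ZNF878 and ZNF625), where 5.56% of all windows were earlier and 4.18% later. The differences were smaller with this setting, at -0.152 for ZNF763, -0.156 for ZNF433, -0.1498 for ZNF878 and -0.118 for ZNF625 (limma adjusted p 0.00710 to 0.0463). The 5 that no longer passed were at -0.106 for ZNF439, -0.0702 for ZNF426, -0.0687 for ZNF563, -0.0887 for ZNF599 and -0.0944 for ZNF570 (limma adjusted p 0.0599 to 0.249).

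**Figure D4:**
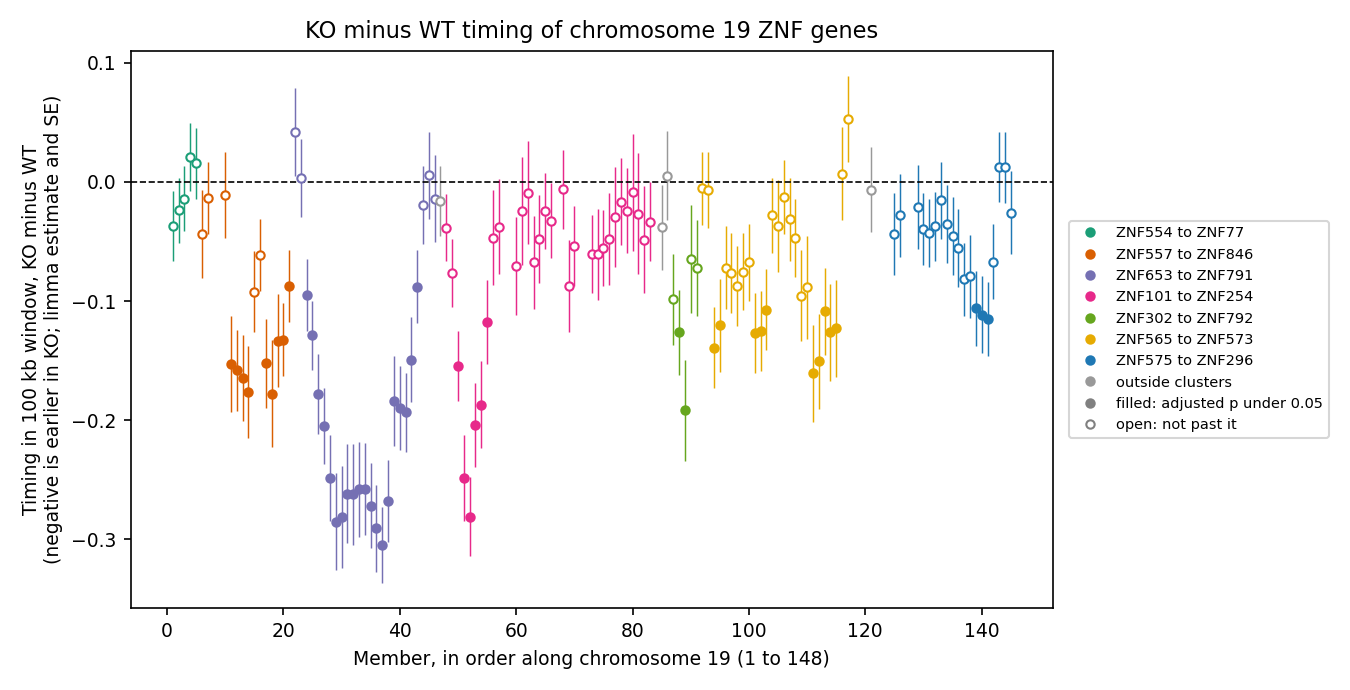
Timing in 100 kb windows, KO minus WT, of the 129 ZNF genes tested, in order along chromosome 19 (limma estimate and SE from 16 libraries, filled where the adjusted p is under 0.05). The ZNF653 to ZNF791 cluster forms a trough down to -0.305, and 50 of the 129 points are filled, all below 0.

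As a whole span, the ZNF653 to ZNF791 cluster had a timing of 0.355 ± 0.0413 in KO and 0.475 ± 0.05003 in WT (SD, n = 8 plates). After centring of each library the difference was -0.128 ± 0.0397, from -0.178 to -0.0619, and it was below 0 in 8 of 8 plates. Exact permutation of signs over the plates gave p = 0.00781 and an adjusted p of 0.0547 over 7 clusters, and a lone cluster at the smallest possible p cannot get below that. The ZNF302 to ZNF792 cluster had 0.426 ± 0.0452 in KO and 0.503 ± 0.0513 in WT, a centred difference of -0.0856 ± 0.0919 (exact adjusted p = 0.164). The other 5 spans differed by -0.0113 to 0.0266, with exact adjusted p of 0.346 to 0.953.

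The ZNF653 to ZNF791 cluster was labelled less at the end of S phase and more at its beginning in KO than in WT. With the order cut into 3 equal ranges, its molecules per covered kb in the late range were 0.379 ± 0.0935 of the autosomal level in KO and 0.830 ± 0.0950 in WT. The KO plates lay between 0.225 and 0.512 and the WT plates between 0.684 and 0.969, so the genotypes did not overlap. In the early range the level was 1.35 ± 0.115 in KO and 0.995 ± 0.0866 in WT, higher in KO in 8 of 8 plates. These levels are set against all autosomal molecules of the same range and genotype, which scales for how many molecules fell in a range. Where cells lay within a range was not corrected. With both genotypes together, this cluster's level fell from 1.05 in bin 8 to 0.268 in bin 10. How far a different spread of KO and WT cells within a range changed these levels was not tested. The early range held 58.8% ± 7.03 of the cluster's molecules in KO and 43.1% ± 7.33 in WT.

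The ZNF302 to ZNF792 cluster had a like course, with an early level of 1.51 ± 0.308 in KO and 0.954 ± 0.197 in WT, higher in KO in 8 of 8 plates, and a late level of 0.632 ± 0.322 in KO and 0.999 ± 0.340 in WT. In the ZNF565 to ZNF573 cluster both ends were higher in KO. Its early level was 0.858 ± 0.113 in KO and 0.642 ± 0.118 in WT, higher in KO in 8 of 8 plates, and its late level 1.80 ± 0.313 in KO and 1.55 ± 0.0705 in WT, higher in KO in 7 of 8. The early ZNF575 to ZNF296 cluster had nearly equal late levels, 0.143 ± 0.0394 in KO and 0.145 ± 0.0223 in WT. These levels describe the same contrast as the tests above and got no test of their own.

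The number of molecules by genotype was compared last. No ZNF window differed on its own: 0 of 141 tested had more or fewer molecules in KO by limma voom (adjusted p under 0.05), where 0.0% of all 16423 windows had more and 0.164% fewer. At an unadjusted limma voom p under 0.05, 7 of the 141 ZNF windows had more and 11 fewer, where 377 and 1264 of all 16423 windows did. The share of ZNF windows with fewer was thus near that of all windows, and the share with more was above it. Neither share was tested, and many of these windows share bases. Of 101 ZNF windows of chromosome 19 from 50 Mb on, 2 had fewer in KO at the adjusted p and 0 more, with a median fitted log2 ratio of -0.713. Summed over whole clusters, 3 differed from a log2 ratio of 0 by exact permutation of signs over the plates, with p adjusted over 7 clusters. The typical gene window was not at 0. The median fitted log2 ratio was -0.0963 over all 16423 windows and -0.136 for other chromosome 19 genes. Part of a negative cluster ratio is thus shared with other windows.

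**Figure D5:**
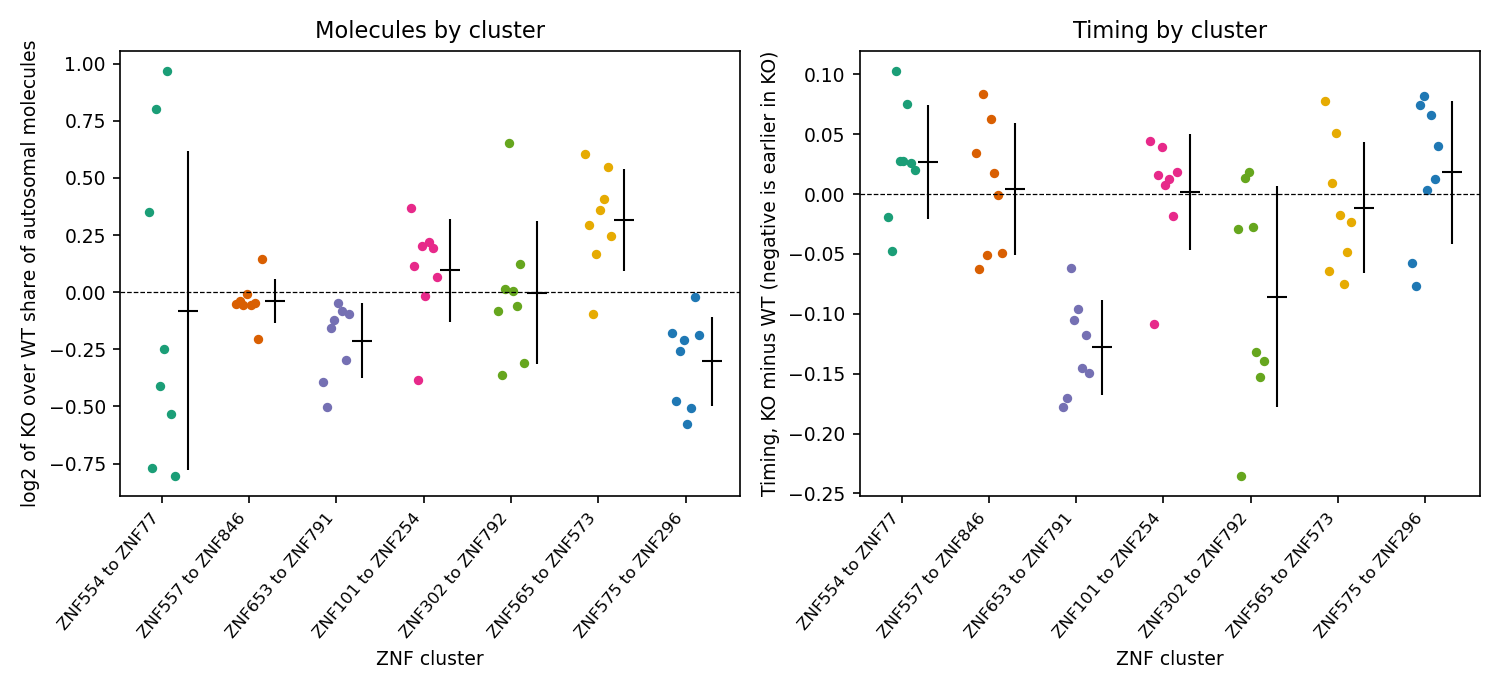
Per-plate log2 ratio of KO over WT in the share of autosomal molecules (left) and per-plate timing, KO minus WT (right), for the 7 clusters, with mean and SD of 8 plates in black. The ZNF653 to ZNF791 cluster lies below 0 in 8 of 8 plates in both panels.

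The ZNF653 to ZNF791 cluster held 355 ± 33.3 molecules per 1000000 autosomal molecules in KO and 409 ± 20.1 in WT. Its log2 ratio was -0.21 ± 0.17, from -0.50 to -0.05, below 0 in 8 of 8 plates (exact adjusted p = 0.0273). The ZNF575 to ZNF296 cluster held 346 ± 53.0 in KO and 425 ± 51.1 in WT, with a log2 ratio of -0.30 ± 0.19, below 0 in 8 of 8 plates (exact adjusted p = 0.0273). The ZNF565 to ZNF573 cluster went the other way. It held 845 ± 112 in KO and 673 ± 29.3 in WT, with a log2 ratio of 0.32 ± 0.22, above 0 in 7 of 8 plates (exact adjusted p = 0.0365). The early ZNF575 to ZNF296 cluster and the late ZNF565 to ZNF573 cluster thus differed in opposite directions. With every library given the same S-phase mix, the log2 ratios were -0.18, -0.22 and 0.30 for the same 3 clusters in the order named, and none passed (exact adjusted p = 0.137, 0.137 and 0.0547). With 1 plate left out at a time, the exact adjusted p ran from 0.0365 to 0.0547 for the first 2 and from 0.0365 to 0.0729 for the third. Leaving out a plate can thus end each of these calls, though 7 plates pass only where 3 clusters share the smallest p. The log2 ratios kept their signs, at -0.24 to -0.17, -0.34 to -0.26 and 0.28 to 0.38 in the same order.

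Among the other clusters the log2 ratio was 0.10 ± 0.23 for ZNF101 to ZNF254, which held 1689 ± 257 molecules per 1000000 in KO and 1573 ± 175 in WT (exact adjusted p = 0.427). It was -0.04 ± 0.10 for ZNF557 to ZNF846 (exact adjusted p = 0.427), -0.08 ± 0.70 for ZNF554 to ZNF77 (exact adjusted p = 0.875) and -0.0022 ± 0.31 for ZNF302 to ZNF792 (exact adjusted p = 0.977). The ZNF554 to ZNF77 cluster, the shortest, held 748 molecules in all libraries together and spread from -0.80 to 0.97 over the plates. A change of the size seen elsewhere could not be told from that spread, and whether the spread came from depth was not tested. A fitted single-window ratio above 0 was found for 5 of 25 members of ZNF653 to ZNF791, 2 of 24 of ZNF575 to ZNF296 and 24 of 26 of ZNF565 to ZNF573. These windows hold molecules already summed in their cluster, and many share bases, so they add no separate support. The median ratio of all windows was itself below 0, as given above. ZNF461, the window with the most molecules, held 360 in KO and 391 in WT, from libraries that averaged 1156250 molecules in KO and 1805800 in WT.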

How the data were processed

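Per the file headers, each row of a deposited file is 1 sequenced fragment, given by its cell, chromosome, position, length with a sign, and treatment; these are positions, not scaled values. Coordinates are of GRCh38, as the submitters' processing notes name it. Which aligner, mapping filters and duplicate removal were used was not given in the sources used here. Cells were assigned a genotype from the file column named treatment, since the labels' genotype field says CFAP20-KO for all plates while the titles name both genotypes.

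Gene positions and promoters came from RefSeq GRCh38.p14. Cells with at least 1000 autosomal molecules were ordered by correspondence analysis of molecules in 500 kb bins (Python 3.11.15, numpy 2.4.6, scipy 1.17.1), over both genotypes together. Window timing needed at least 10 molecules in every plate, or in every library for KO against WT; molecule tests needed a mean of 10. Tests across windows used limma 3.58.1 in R 4.3.3, with p-values adjusted over all autosomal windows. Clusters were tested by exact two-sided sign-flip permutation of the 8 plate differences. KO and WT of a plate share that plate, per the titles; deviations of same-plate libraries correlated with a mean of 0.0267 (-0.0315 to 0.0844), against -0.0038 between plates, and 3 of 8 KO libraries correlated best with their own plate. The members, gene lists and tests were chosen with earlier results of these data known. Named genes are the earliest and latest of each cluster, those called in KO against WT in 50 kb windows, the 3 with the most and the 3 with the fewest molecules, and the 5 nearest in timing to the median other chromosome 19 gene, and the ends of each list; other genes were named after their values were seen. Molecules without an identifier are not independent, and the spread between plates is the error given. Alternatives tried were the cell minimum, window size, window minimum, weighting, order, scaling, centring, cluster gap, plate block and leaving out plates.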

Additional observations from a re-analysis of the deposited data

Results flagged for a closer look

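In 1 of 41 sets of 8 plates, 1 plate lay far from the others, and chance flags about 1 set in 20. In plate 2 the timing of the ZNF101 to ZNF254 cluster, KO minus WT, was -0.109, while the other 7 plates lay between -0.0180 and 0.0439. In the same plate the molecule-weighted mean position was 0.610 in KO, the highest of the KO libraries, and 0.510 in WT. Without plate 2 the mean difference of this cluster was 0.0171 ± 0.0206 (SD, n = 7 plates), against 0.00144 ± 0.0484 (n = 8) with it, and 0.00363 ± 0.0393 over all 8 with the same S-phase mix.

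Outside the windows used here, 1099 molecules lay on alternate contigs of chromosome 19, 74 to 183 per plate, beside 24799 to 55941 on the chromosome itself per plate. They entered no timing or comparison.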

How the results depend on the processing

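The later timing of the ZNF genes than of other chromosome 19 genes kept its direction in every setting tried, with a difference of 0.171 with equal weight per cell, 0.390 over gene bodies and 0.248 to 0.272 with 1 plate left out. The number of ZNF genes called earlier than the median other chromosome 19 gene was 9 of 122 with cells of at least 5000 molecules (4316 of all 12592 windows). It was 0 of 86 over gene bodies (2439 of all 8608) and 15 of 112 with a minimum of 20 molecules (4064 of all 9780). In each of these settings the ZNF share was below that of all windows. For molecules, 1 of 142 ZNF windows had more in KO in 100 kb windows, where 16 of all 17690 windows did. For timing, the number of ZNF windows earlier in KO was 3 of 21 with cells of at least 5000 molecules. In that setting 176 of all 1175 windows were earlier, so the ZNF share was near that of all windows. It was 50 of 129 in 100 kb windows (1889 of all 13800) and 30 of 129 there with the same S-phase mix (976 of all 13800). Over gene bodies it was 5 of 26 (632 of all 4610). It was 0 of 2 with a minimum of 20 molecules (26 of all 125) and 29 of 142 with a minimum of 1 molecule (1140 of all 17351). In 50 kb windows with the same S-phase mix it was 4 of 51 (217 of all 3900). With 51 ZNF windows tested it was 7 with centring on chromosome 19 windows (247 of all 3900) and 8 with no centring (343 of all 3900). With 1 plate left out the number was 7 to 14. It was highest without plate 8, where 80 ZNF windows were tested and 542 of all 5682 windows were earlier. Of 51 windows, 1 was called later with centring on chromosome 19 windows, 1 with the replicate block (plate as a block), and 0 to 1 with 1 plate left out; the block changed no other count by over 1.5 times.

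Cluster timing moved towards the middle of the scale with equal weight per cell, to 0.313 (ZNF554 to ZNF77), 0.482 (ZNF557 to ZNF846), 0.479 (ZNF653 to ZNF791), 0.510 (ZNF101 to ZNF254), 0.505 (ZNF565 to ZNF573) and 0.460 (ZNF575 to ZNF296). With cells of at least 5000 molecules it was 0.261 (ZNF554 to ZNF77), 0.719 (ZNF101 to ZNF254), 0.599 (ZNF565 to ZNF573) and 0.265 (ZNF575 to ZNF296). Pairs of clusters that differed numbered 15 of 21 with equal weight per cell and, with gaps of over 2 Mb, 9 of 10. With gaps of over 0.5 Mb 20 of 21 differed, and the second cluster, then ZNF414 to ZNF846, was at 0.475.

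The KO difference in timing of the ZNF653 to ZNF791 cluster kept its direction in every setting tried, at -0.137 to -0.121 with 1 plate left out and -0.0864 with the same S-phase mix. Near 0, the sign turned for ZNF101 to ZNF254 (-0.0036 with cells of at least 300 molecules, -0.00463 to 0.0171 with 1 plate left out), ZNF557 to ZNF846 (-0.00695 to 0.0139 with 1 plate left out) and ZNF554 to ZNF77 (-0.000956 with cells of at least 5000 molecules).

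The 3 molecule calls (log2, KO over WT) did not pass with cells of at least 5000 molecules (-0.19 for ZNF653 to ZNF791, 0.35 for ZNF565 to ZNF573, -0.38 for ZNF575 to ZNF296), as a share of chromosome 19 molecules (-0.13, 0.40 and -0.22) or with the same S-phase mix (-0.18, 0.30 and -0.22). With 1 plate left out they were -0.24 to -0.17, 0.28 to 0.38 and -0.34 to -0.26, and 7 plates pass only where 3 clusters share the smallest p. The sign turned for ZNF302 to ZNF792 (0.0023 with cells of at least 300 molecules, 0.0015 without high-count bins, 0.0821 as a share of chromosome 19, 0.0510 with the same mix, -0.0961 to 0.0490 with 1 plate left out), for ZNF554 to ZNF77 (0.0033 as a share of chromosome 19, 0.0823 with the same mix, -0.231 to 0.0223 with 1 plate left out), for ZNF557 to ZNF846 (0.0451 as a share of chromosome 19, 0.110 with the same mix; -0.0657 to -0.0155 with 1 plate left out, where it passed without plate 8) and for ZNF101 to ZNF254 (-0.0095 with the same mix). Depth limited the 50 kb comparison of KO with WT to 51 of 148 genes.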
